A study of Mus musculus with 50 samples.

Results

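Mammary gland tumors of mice injected with ligands that act mainly on the insulin receptor were compared with tumors of mice injected with ligands that also act strongly on IGF1R, the receptor of insulin-like growth factor 1. The first class held the 20 tumors treated with insulin or glargine and the second the 20 tumors treated with X10 or IGF1, so that 40 of the 50 sequenced tumors entered the comparison. Members were chosen by their treatment label alone. The 10 vehicle tumors were left out and appear only as values beside the others.

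All tumors came from female p53R270H/+WAPCre mice, which carry a mutant p53 allele over a normal one, switched on by a Cre recombinase under the whey acidic protein promoter of mammary epithelium. From 8 weeks of age they received a subcutaneous injection of insulin, glargine, X10, IGF1 or vehicle every other day until a tumor formed. Tumors were taken at 1 cm3, 24 h after the last injection, and the mice of each treatment thus differed in how long they had been treated. Each treatment had 10 sequenced tumors. The study describes them as EMT-like (epithelial to mesenchymal transition) and as those nearest to the median latency of their treatment group. Doses are not given in the sources used here, and whether every tumor came from a separate mouse is not stated, so that p-values measure the spread between tumors.

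Insulin binds the insulin receptor, and IGF1 the closely related IGF1R, and both receptors signal through insulin receptor substrates to PI3K/AKT/mTOR and to RAS/ERK, which raise glucose use, translation and growth. Glargine is insulin with a glycine at the end of its A chain and a pair of arginines added to its B chain. The study states that glargine too has a raised affinity for IGF1R. In vivo, it adds, glargine is quickly broken down to products of lower affinity and activates IGF1R only mildly. X10 is insulin with an aspartic acid in place of a B chain histidine, and it binds IGF1R more strongly than insulin does.

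The values were RPKM, reads per kilobase of gene length scaled to library size. Library sizes, recovered from the steps of the RPKM values, were 26.6 to 51.9 M reads. They had a mean of 39.9 ± 6.07 M reads in the X10/IGF1 tumors and 39.9 ± 5.54 M in the insulin/glargine tumors (SD, n = 20 each), a difference of 0.0607 M reads (permutation test, two-sided, 100000 resamples, p = 0.974). The label numbers of the tumors and their sequencing identifiers both run in blocks by treatment. Numbers ran from insulin_8 to insulin_37, glargine_47 to glargine_78, X10_95 to X10_120 and IGF1_124 to IGF1_160. The mesenchymal marker Vim was between 1480 and 6102 RPKM in the 40 tumors. Cdh1, the epithelial cadherin, had a median of 6.56 RPKM in the insulin/glargine tumors (1.15 to 35.0) and 6.70 in the X10/IGF1 tumors (0.993 to 49.5).

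A run of 8 libraries stood apart. These were the tumors with adjacent sequencing identifiers 25 to 32, namely 6 X10 tumors (X10_111, X10_113, X10_115, X10_116, X10_118 and X10_120) and 2 IGF1 tumors (IGF1_124 and IGF1_128). Processed pseudogenes, intronless copies of mRNAs that were inserted into the genome, took 2.49 to 4.03% of their summed RPKM, below each of the insulin/glargine tumors (4.07 to 7.24%). The other 4 X10 tumors (4.61 to 5.75%) and the other 8 IGF1 tumors (4.75 to 7.11%) lay in the range of the insulin/glargine tumors. The run crosses the boundary between the X10 and the IGF1 block and covers neither block whole; its cause was not tested. The 8 libraries were recognised after the data were seen, and many of the results below, though not all, are given with and without them. Without them 32 tumors entered the fit, 12 of them X10/IGF1 tumors, and 0 of 16733 genes were called at an adjusted p under 0.05 (smallest 0.127), with 646 higher and 649 lower at an unadjusted p under 0.05. This fit is not among the 20 alternatives counted below.

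Few genes differed between the classes, and those higher and those lower were of different kinds. A handful of protein-coding genes, led by the ribosomal protein gene Rpl30 and the chaperone gene Pfdn5, were higher in X10/IGF1 tumors, while most genes that were lower were annotated as processed pseudogenes. The values that follow include the 8 libraries unless stated. Each gene was tested with limma on log2(RPKM + 0.5), a scale that understates changes of low genes, as the mean of X10 and IGF1 minus the mean of insulin and glargine. Of 16733 genes that averaged 0.5 RPKM or more, 58 (0.347%) had a Benjamini-Hochberg adjusted p under 0.05, referred to as called below. Of these, 9 (0.0538%) were higher and 49 (0.293%) lower in X10/IGF1 tumors. The 9 higher genes and 4 of the lower ones were protein-coding, among 13617 protein-coding genes tested, and the other 45 lower genes were annotated as processed pseudogenes, among 1930. With pseudogenes and Gm-number genes left out, and p adjusted over the remaining 14075 genes, 2 protein-coding genes were called, Rpl30 (adjusted p = 0.0172) and Pfdn5 (adjusted p = 0.0173). The other 7 higher and all 4 lower protein-coding genes, described below as called, then had adjusted p between 0.0608 and 0.18 at the same fold changes. By symbol, 40 of 2309 genes named Gm plus a number were called, all of them lower. At an unadjusted p under 0.05, 611 genes (3.65%) were higher and 1458 (8.71%) lower. The median log2 fold change was -0.0302 over all genes, -0.0139 over protein-coding genes and -0.227 over processed pseudogenes. In the fit without the 8 libraries these medians were -0.0246, -0.0262 and -0.0259, so that the median of the processed pseudogenes was then close to that of all genes, and 44.1% of them had a positive fold change, where 44.5% of all genes had.

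The number of calls depended on which ligands were compared. With insulin left out 0 genes were called (1483 at an unadjusted p under 0.05), with X10 left out 0 (1571 unadjusted), with glargine left out 2, and with IGF1 left out 757. Leaving out 1 tumor at a time gave between 10 and 196 called genes, with more lower than higher genes in 40 of 40 cases. Quantile normalization gave 9 higher and 12 lower genes in place of 9 and 49, and at an unadjusted p under 0.05 it gave 1209 higher and 1000 lower genes.

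**Figure D1:**
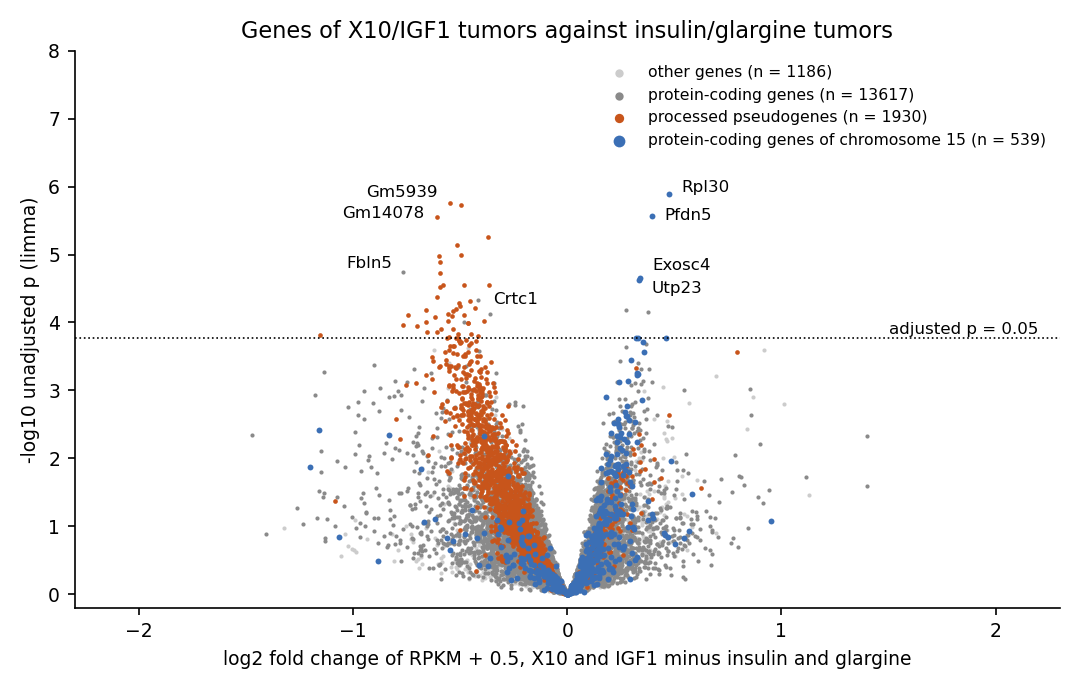
Each point is 1 of the 16733 tested genes, with its log2 fold change of RPKM + 0.5 (X10 and IGF1 minus insulin and glargine) on the x axis and the -log10 of its unadjusted limma p on the y axis; the dotted line is where the adjusted p reaches 0.05. Processed pseudogenes (n = 1930) lean to the left, protein-coding genes of chromosome 15 (n = 539) to the right, and 9 genes on the right and 49 on the left pass the line.

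Rpl30, a protein of the large ribosomal subunit, had the smallest p (chromosome 15, 34440505 to 34443640, minus strand, GRCm38). It was between 202 and 418 RPKM in the insulin/glargine tumors, with a median of 255.6, and between 269 and 515 in the X10/IGF1 tumors, with a median of 370.3. The ranges overlapped, but 20 of the 20 X10/IGF1 tumors were above the mean log2 level of the insulin/glargine tumors. The log2 fold change was 0.47 ± 0.08 (SE, n = 20 and 20; adjusted p = 0.00949). Means were 244 ± 33.7 RPKM with insulin, 303 ± 68.96 with glargine, 389 ± 62.1 with X10 and 367 ± 70.2 with IGF1 (SD, n = 10 each), and the vehicle tumors, had a mean of 309 ± 63.7. With the 8 libraries left out the log2 fold change was as large, at 0.46 ± 0.10, but not called (adjusted p = 0.236). The 8 were between 297 and 473 RPKM and the other 12 X10/IGF1 tumors between 269 and 515. Without insulin the log2 fold change of Rpl30 was 0.33 (adjusted p = 0.294), and without X10 it was 0.43 (adjusted p = 0.268).

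Pfdn5, a subunit of the prefoldin complex that hands newly made actin and tubulin to the TRiC chaperonin, followed (chromosome 15, 102326116 to 102331873, plus strand). It had a median of 164.0 RPKM in the insulin/glargine tumors (129 to 229.9) and of 209 in the X10/IGF1 tumors (169 to 354). Again 20 of 20 X10/IGF1 tumors exceeded the mean log2 level of the other class, and the log2 fold change was 0.40 ± 0.07 (adjusted p = 0.00949). It was 0.44 ± 0.09 without the 8 libraries (adjusted p = 0.236). The X10 tumors were tightly grouped at 209 ± 15.1 RPKM, and the IGF1 tumors spread more, at 225 ± 57.0 (SD, n = 10 each).

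The other 7 called higher genes were not called once pseudogenes and Gm-number genes were left out. Exosc4, a core subunit of the RNA exosome, had means of 20.0 ± 2.00 RPKM with insulin, 23.7 ± 3.20 with glargine, 26.0 ± 3.66 with X10 and 29.8 ± 5.92 with IGF1 (log2 fold change 0.34 ± 0.07, adjusted p = 0.0278). The IGF1 tumors had the highest Exosc4 mean. Utp23 and Fcf1, which act in the processing of the small-subunit ribosomal RNA, had log2 fold changes of 0.33 ± 0.07 (adjusted p = 0.0278) and 0.38 ± 0.09 (adjusted p = 0.0391). Eif3m, a subunit of translation initiation factor eIF3, had means of 64.6 and 69.1 RPKM with insulin and glargine and of 87.8 and 75.0 with X10 and IGF1 (0.27 ± 0.06, adjusted p = 0.0391). Cox6c, a nuclear-encoded subunit of cytochrome c oxidase, was between 94.6 and 182.9 RPKM in the insulin/glargine tumors and between 83.4 and 272 in the X10/IGF1 tumors (0.46 ± 0.11, adjusted p = 0.0495). Here the lowest X10/IGF1 tumor was below every insulin/glargine tumor. The remaining 2 were Zfp706, a zinc finger gene, at 0.33 ± 0.08, and Slc25a17, a peroxisomal carrier, at 0.32 ± 0.08 (adjusted p = 0.0495 for both). Rad1, of the DNA damage checkpoint clamp, came 10th and was not called (0.35 ± 0.09, adjusted p = 0.0504). Without the 8 libraries Cox6c and Zfp706 fell to a log2 fold change of 0.15 each (adjusted p = 0.711 and 0.672), and the values were 0.35 for Exosc4, 0.27 for Utp23, 0.46 for Fcf1, 0.22 for Eif3m and 0.26 for Slc25a17 (adjusted p between 0.274 and 0.501). Cox6c was between 166.4 and 272 RPKM in the 8 and between 83.4 and 186.1 in the other 12 X10/IGF1 tumors.

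**Figure D2:**
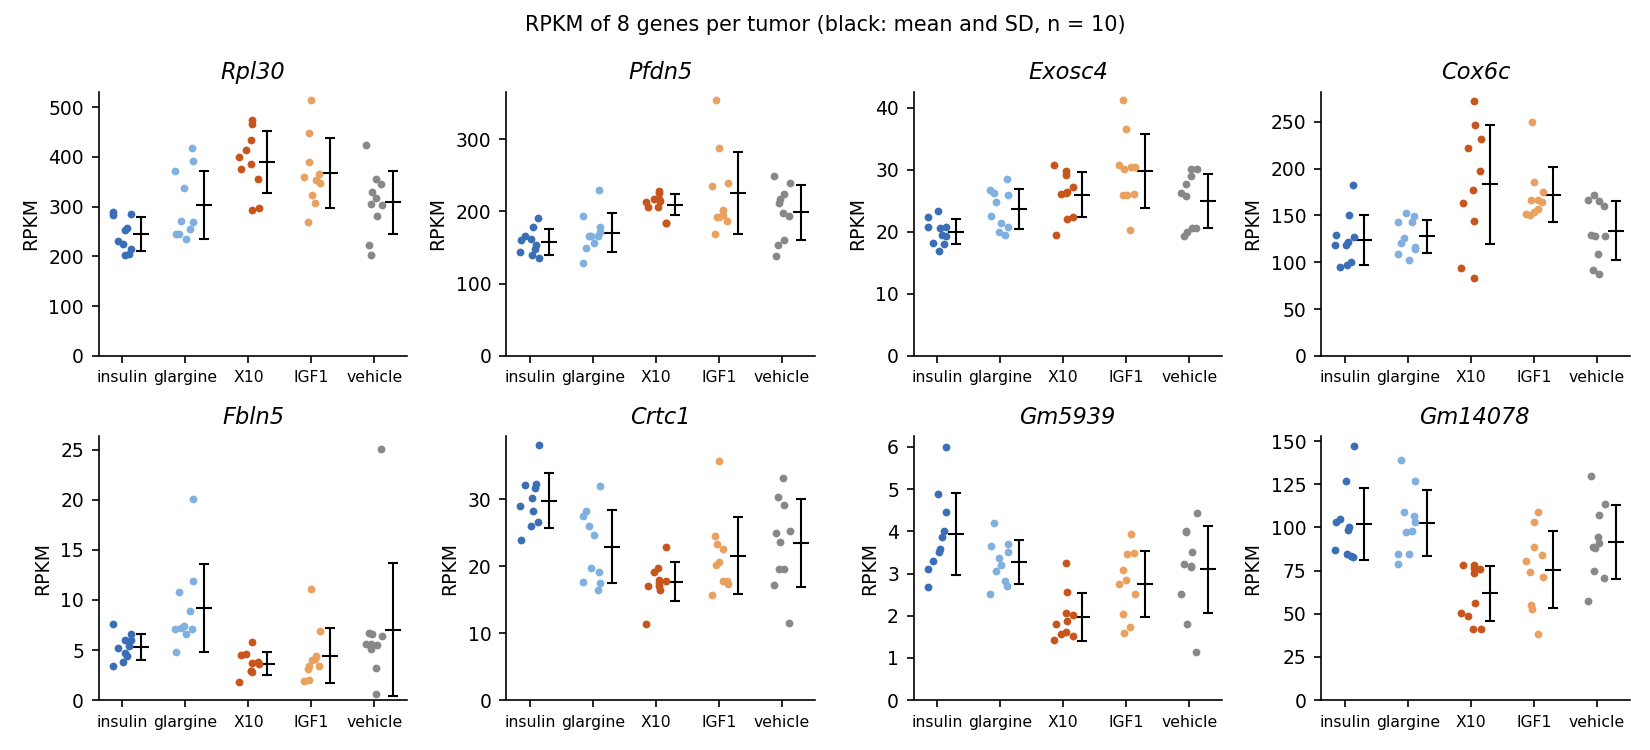
RPKM per tumor (y axis, starting at 0) by treatment (x axis, 10 tumors each), with mean and SD in black, for 4 genes called higher (Rpl30, Pfdn5, Exosc4, Cox6c) and 4 called lower (Fbln5, Crtc1, Gm5939, Gm14078) in X10/IGF1 tumors. The classes overlap for all 8 genes, and the vehicle tumors are shown for their values and were not tested.

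Chromosome 15 held 7 of the 9 called higher protein-coding genes (Rpl30, Pfdn5, Exosc4, Utp23, Cox6c, Zfp706 and Slc25a17; the others were Eif3m on chromosome 2 and Fcf1 on chromosome 12). It holds 539, or 3.96%, of the protein-coding genes tested. The pattern was noticed in these data and then examined further. Of the 539 genes, 380 (70.5%) had a positive log2 fold change, with a median of 0.08, where the share over all protein-coding genes was 45.9%. At an unadjusted p under 0.05, 83 were higher and 6 lower. Without the 8 libraries 339 (62.9%) were positive, with a median of 0.05, and 49 were higher and 6 lower at an unadjusted p under 0.05; chromosome 10 was then the highest, at 63.2%, and chromosome 16 the lowest, at 11.9%. With all 40 tumors the shift ran along the chromosome: in windows of 20 Mb the median was between 0.06 and 0.14, with 29 of 46 genes positive in the first window and 43 of 66 in the last. Among the other chromosomes the share of positive fold changes was, with all 40 tumors, between 22.8% (chromosome 16) and 59.8% (chromosome 12).

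A chromosome level was computed for each tumor as the median deviation of the chromosome's protein-coding genes from their mean over all 50 tumors, minus the same median over the other chromosomes. For chromosome 15 this level was -0.08 ± 0.11 with insulin, -0.0024 ± 0.09 with glargine, 0.05 ± 0.17 with X10 and 0.08 ± 0.13 with IGF1 (log2, SD, n = 10 each). It was above 0 in 6 of the 20 insulin/glargine tumors and in 11 of the 20 X10/IGF1 tumors, and in the latter it ran from -0.18 to 0.31. The insulin/glargine tumors ran from -0.26 to 0.20, so that the ranges overlapped, with some X10 and IGF1 tumors above all of the other class. The difference of 0.11 had a p of 0.0123 (permutation test, two-sided, 100000 resamples), but an adjusted p of 0.246 over the 20 chromosomes, and so did not pass the correction for the number of chromosomes. It was 0.10 (p = 0.0265) without the 8 libraries. It was 0.07 (p = 0.196) without insulin and 0.09 (p = 0.0949) without IGF1, against 0.13 (p = 0.00926) without X10 and 0.15 (p = 0.00938) without glargine. The chromosome 15 level is computed from genes that include the called ones of that chromosome, and it was picked after the data were seen. A loss of calls with it as a covariate is thus partly built in. With the chromosome 15 level of each tumor as a covariate, 0 of the 9 higher genes remained called, those on chromosomes 2 and 12 included. Their fold changes stayed positive, at 0.35 for Rpl30 and Pfdn5 (adjusted p = 0.061 for both), 0.36 for Cox6c (adjusted p = 0.212), 0.26 for Eif3m (adjusted p = 0.115) and 0.33 for Fcf1 (adjusted p = 0.144). Exosc4, Utp23, Zfp706 and Slc25a17 were at 0.26, 0.22, 0.25 and 0.21 (adjusted p between 0.134 and 0.25). The 4 lower protein-coding genes were not called in that fit either, but their fold changes were close to those without the covariate, at -0.77 for Fbln5, -0.39 for Crtc1, -0.35 for Rsph3b and -0.45 for Fzd3 (adjusted p between 0.065 and 0.13). DNA copy number of these tumors is not part of the data used here, and its part in the result was not tested.

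**Figure D3:**
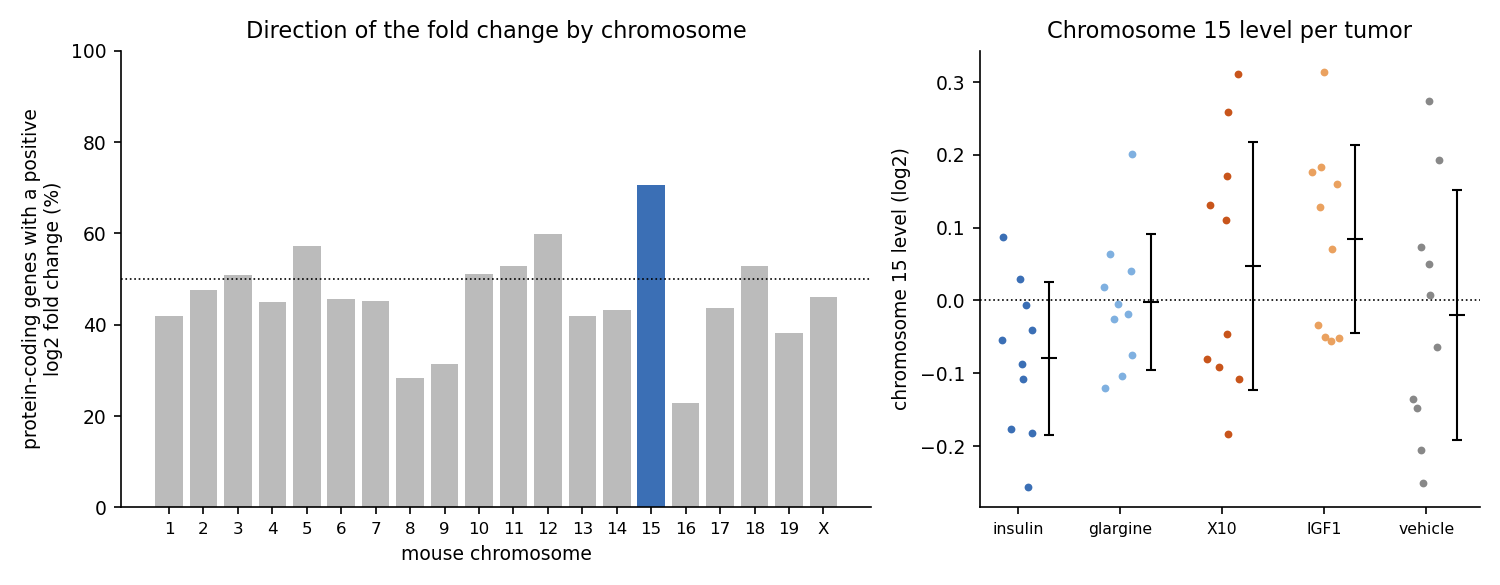
Left, the percentage of protein-coding genes with a positive log2 fold change (y axis) for each mouse chromosome (x axis), with 50% dotted; chromosome 15 is highest at 70.5% and chromosome 16 lowest at 22.8%. Right, the chromosome 15 level (log2, relative to the other chromosomes) per tumor by treatment, with mean and SD in black; the X10 and IGF1 tumors spread over both sides of 0.

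Among the protein-coding genes that were lower in X10/IGF1 tumors, 4 were called. Fbln5, a protein of elastic fibres, had a median of 6.58 RPKM in the insulin/glargine tumors (3.41 to 20.1) and of 3.63 in the X10/IGF1 tumors (1.84 to 11.1), a log2 fold change of -0.77 ± 0.16 (adjusted p = 0.0259). The glargine tumors had the highest mean, at 9.20 ± 4.36 RPKM (SD, n = 10) against 5.32 with insulin, and without glargine the log2 fold change of Fbln5 was -0.43 (adjusted p = 0.453). Crtc1, a coactivator of CREB, had a median of 27.0 RPKM in the insulin/glargine tumors (16.4 to 38.0) and 17.8 in the X10/IGF1 tumors (11.3 to 35.7), a log2 fold change of -0.42 ± 0.09 (adjusted p = 0.0384). Insulin tumors were highest for Crtc1 at a mean of 29.8 RPKM and X10 tumors lowest at 17.6. Fzd3, a Wnt receptor, had means of 1.99 and 1.75 RPKM with insulin and glargine and of 1.19 and 1.16 with X10 and IGF1 (-0.48 ± 0.11, adjusted p = 0.0416), so that X10 and IGF1 were nearly level. Rsph3b, a radial spoke protein of cilia, had a log2 change of -0.36 ± 0.08 (adjusted p = 0.0391). Once the 8 libraries were left out the values were -0.72 for Fbln5, -0.51 for Crtc1, -0.47 for Fzd3 and -0.24 for Rsph3b, with adjusted p between 0.236 and 0.565.

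The next 6 lower protein-coding genes were not called, with adjusted p between 0.0558 and 0.0706. Ptprm, a receptor tyrosine phosphatase, had a log2 fold change of -0.41 ± 0.10. The value was -0.90 ± 0.23 for Svep1, a large extracellular matrix protein, and -0.47 ± 0.12 for Reck, an inhibitor of matrix metalloproteinases. Zbtb20, a transcriptional repressor, was at -0.51 ± 0.13, Cped1 at -0.72 ± 0.19, and Fxyd6, a modulator of the sodium pump, at -1.14 ± 0.30. Svep1 and Cped1 were lowest with IGF1, at means of 13.5 and 7.21 RPKM, where the X10 tumors had 21.9 and 11.1.

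Processed pseudogenes made up most of the called genes, and this rested on the 8 libraries with adjacent identifiers. Of the 1930 tested, 1632 had a negative log2 fold change and 45 (2.33%) were called, all lower. With the 8 left out 0 were called, and at an unadjusted p under 0.05 5.96% were higher and 5.85% lower. In terms of summed RPKM, processed pseudogenes took 5.51 ± 0.86% in the insulin/glargine tumors (4.07 to 7.24) and 4.73 ± 1.33% in the X10/IGF1 tumors (2.49 to 7.11; SD, n = 20 each), a difference of -0.78 percentage points (permutation test, two-sided, 100000 resamples, p = 0.0331, adjusted p = 0.0662 over 4 measures). Without the 8 libraries the X10/IGF1 share was 5.67 ± 0.71% (SD, n = 12) and the difference turned to 0.16 percentage points (p = 0.594). The share of the Gm-number genes differed by -0.66 percentage points (p = 0.0261, adjusted p = 0.0662), turning to 0.077 (p = 0.754) without the 8, and that of the mitochondrially encoded genes by 0.13 (p = 0.639). By treatment the processed pseudogene share was 5.14 ± 0.94% with insulin, 5.88 ± 0.60% with glargine, 4.19 ± 0.97% with X10 and 5.26 ± 1.46% with IGF1 (SD, n = 10 each), against 5.12 ± 0.63% with vehicle. The X10 and IGF1 values each join a low and a higher set of tumors, 3.25 to 4.03% in 6 X10 tumors against 4.61 to 5.75% in the other 4, and 2.49 to 2.99% in 2 IGF1 tumors against 4.75 to 7.11% in the other 8. With all tumors, IGF1 minus insulin was 0.12 percentage points (p = 0.823), and of the 6 pairs of ligands, X10 minus glargine alone passed adjustment over them (-1.69, adjusted p = 0.00204), a pair in which the X10 group holds 6 of the 8 libraries. With the processed pseudogene share as a covariate 0 of the 45 remained called, but that share is summed from these same genes, so that the loss says nothing of its own about them. In that fit the log2 fold change was -0.42 for Gm5939 and -0.44 for Gm14078 (adjusted p = 0.0552 for both).

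Gm14078 is the most abundant of the 5 Gm-number genes with the smallest p that were lower. It had a median of 99.4 RPKM in the insulin/glargine tumors (78.6 to 147.3) and of 73.9 in the X10/IGF1 tumors (38.0 to 109), with a log2 change of -0.61 ± 0.11 (adjusted p = 0.00949). For Gm14078, 20 of 20 insulin/glargine tumors were above the mean log2 level of the X10/IGF1 tumors. The 8 libraries were between 38.0 and 78.2 RPKM, with a median of 50.7, and the other 12 X10/IGF1 tumors between 50.2 and 108.8, with a median of 77.3. Without the 8 the log2 change of Gm14078 was -0.43 (not called). Gm5939 (-0.55 ± 0.10) and Gm8839 (-0.50 ± 0.09) had the same adjusted p at far lower levels, with means of 3.94, 3.28, 1.97 and 2.74 RPKM and of 1.53, 1.32, 0.776 and 0.986 RPKM with insulin, glargine, X10 and IGF1, and Gm14828 (-0.37 ± 0.07, adjusted p = 0.0153) and Gm15285 (-0.51 ± 0.10, adjusted p = 0.0170) followed. In the other direction no Gm-number gene was called, and the smallest adjusted p were those of Gm10138 (0.0845), Gm12947 (0.117), Gm16241 (0.126), Gm22486 (0.151) and Gm11273 (0.161), all with mean RPKM under 2.5 in each treatment. Gm5939 was between 1.51 and 2.07 RPKM in the 8 libraries, between 1.42 and 3.94 in the other 12 X10/IGF1 tumors and between 2.53 and 6.01 in the insulin/glargine tumors, and without the 8 its log2 change was -0.41 (adjusted p = 0.379). Gm11273 was between 1.77 and 3.92 RPKM in the 8 libraries and between 0.632 and 1.62 in the other 12, and without the 8 its log2 change turned from 0.49 to -0.03 (adjusted p = 0.963).

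A processed pseudogene shares most of its letters with the coding gene it was copied from, so that a read can be hard to assign to one or the other. The closest coding transcript of each was therefore found by BLAST against the GENCODE M21 transcripts. The 3 pairs below, which belong to the 3 lower Gm-number genes with the smallest p, are shown to give an idea of how alike a pair is. Each line holds 60 bases, 5′ to 3′, of the pseudogene or of the coding sequence of its closest gene, with capitals at the positions where the pair differ.
Gm5939, chrX:78858095-78858154, minus strand, GRCm38: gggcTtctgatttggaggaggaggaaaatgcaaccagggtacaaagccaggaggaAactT
Zc3h18: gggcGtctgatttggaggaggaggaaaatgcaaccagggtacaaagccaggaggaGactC
Gm8839, chrX:86270909-86270968, plus strand: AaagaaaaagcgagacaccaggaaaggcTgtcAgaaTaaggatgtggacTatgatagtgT
Abcf1: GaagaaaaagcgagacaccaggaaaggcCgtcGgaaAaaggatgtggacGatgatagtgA
Gm14078, chr2:140956178-140956237, minus strand: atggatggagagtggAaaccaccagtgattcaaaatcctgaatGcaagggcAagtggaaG
Calr: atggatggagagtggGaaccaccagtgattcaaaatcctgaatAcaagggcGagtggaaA
The pairs differed at 3, 6 and 4 of the 60 bases. Over their whole alignments the identity was 95% for Gm5939, 89.5% for Gm8839, of which 50.7% was covered, and 92.5% for Gm14078.

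None of the 3 coding genes was called. Zc3h18, an RNA-binding zinc finger gene, had a log2 fold change of -0.21 (unadjusted p = 0.00773, not called), Abcf1, a translation factor of the ABC family, one of -0.03, and Calr, the chaperone calreticulin, one of -0.10. The 45 called pseudogenes had 44 closest coding genes, of which 10 had a positive and 34 a negative log2 fold change, with a median of -0.04; 0 of them were called, and at an unadjusted p under 0.05 there were 1 higher and 3 lower. The median of the 45 pseudogenes themselves, which are those called lower, was -0.54. Over the 1890 pseudogenes with a coding transcript the median was -0.23. The median of their closest coding genes, 959 different ones, was 0.09, with a gene counted once for each of its copies. By similarity, the median log2 fold change was -0.26 for the 648 pseudogenes of at least 98% identity to a coding transcript, -0.19 for the 543 of 95 to 98%, -0.20 for the 471 of 90 to 95% and -0.23 for the 228 below. By parent gene, the 514 pseudogenes of ribosomal protein genes had a median of -0.14 with 0 called, and the 1376 others a median of -0.26 with 45 called. Without the 8 libraries the medians were -0.0072, -0.0035, -0.06 and -0.07 in the same order of identity, 0.10 for the pseudogenes of ribosomal protein genes and -0.09 for the others. The 45 called pseudogenes, chosen with the 8 included, were then all negative with a median of -0.32. These divisions are given without a test. Since how reads that match several places were shared between a gene and its copies is not given beyond HTSeq's default options, the level of each single pseudogene is uncertain.

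**Figure D4:**
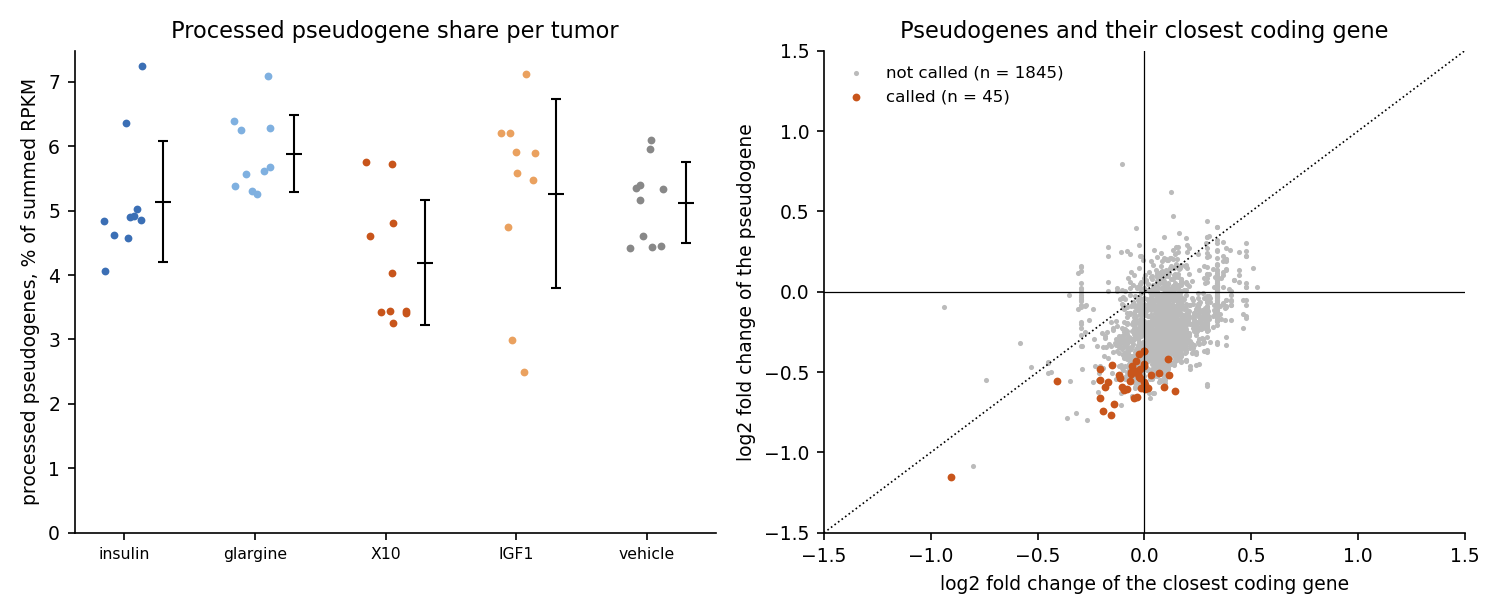
Left, processed pseudogenes as % of summed RPKM (y axis) per tumor by treatment, with mean and SD in black; the X10 tumors are lowest on average at 4.19% and the glargine tumors highest at 5.88%, and the 6 X10 and 2 IGF1 tumors of the run described above lie at 4.03% or less. Right, the log2 fold change of each processed pseudogene (y axis) against that of its closest coding gene (x axis), with equal values dotted; the 45 called pseudogenes lie below the dotted line.

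The receptors and ligands of the pathway were next examined gene by gene. Insr, the insulin receptor, had means of 9.63 and 8.65 RPKM with insulin and glargine and of 8.45 and 7.52 with X10 and IGF1 (log2 fold change -0.20 ± 0.10, p = 0.0546, adjusted p = 0.417). Igf1r had means of 7.22, 6.29, 5.97 and 5.32 RPKM in the same order (-0.25 ± 0.13, p = 0.0694, adjusted p = 0.456). For both receptors the IGF1 tumors had the lowest mean, and neither was called. Igf1r was at -0.11 without the 8 libraries (adjusted p = 0.887) and Insr at -0.20 (adjusted p = 0.693). Endogenous Igf1 had a median of 52.1 RPKM in the insulin/glargine tumors (20.5 to 164) and 34.3 in the X10/IGF1 tumors (6.82 to 65.9), with a log2 fold change of -0.78 ± 0.22 (p = 0.00115, adjusted p = 0.0924). In 17 of 20 insulin/glargine tumors Igf1 was above the mean log2 level of the X10/IGF1 tumors. Igf2 spanned 0.355 to 3228 RPKM over the 40 tumors (0.55 ± 1.01, adjusted p = 0.888), and Igf2r, which clears IGF2, was at -0.14 ± 0.14 (adjusted p = 0.765). Of the 5 receptor and ligand genes tested, 0 were called and 1 had an unadjusted p under 0.05.

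Among 6 IGF binding proteins, Igfbp5 differed most, with a log2 fold change of -1.47 ± 0.49 (p = 0.00447, adjusted p = 0.156). Its means were 24.6 RPKM with insulin, 205 with glargine, 17.5 with X10 and 17.5 with IGF1, and single tumors reached 940 in the insulin/glargine class. Igfbp3 was at 0.14 ± 0.25 (adjusted p = 0.885). Of 14 receptor adaptors 0 were called. Irs2 had a log2 fold change of -0.40 ± 0.20 (p = 0.0486, adjusted p = 0.400), Shc1 of -0.18 ± 0.09 (adjusted p = 0.372) and Irs1 of -0.14 ± 0.18 (adjusted p = 0.833). Irs2 was at -0.11 without the 8 libraries (adjusted p = 0.927), Shc1 at -0.22 and Irs1 at -0.19. In the PI3K and AKT list 13 of 16 genes had a negative fold change and 0 were called; Pik3r1, the regulatory subunit of PI3K, had the smallest p (-0.43 ± 0.14, adjusted p = 0.133). Akt1 was at -0.03 ± 0.09 and Mtor at -0.08 ± 0.08. The median was -0.04 over 15 genes of the mTOR complexes and their regulators, turning to 0.04 with X10 left out and to 0.04 without the 8 libraries. Over 15 FOXO factors and targets the median was -0.13, and -0.03 without the 8 libraries, with 0 called in either list.

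In the ERK branch 0 genes were called. Over 13 RAS, RAF and ERK kinase genes the median log2 fold change was 0.0076, turning negative in 3 of 20 alternatives and without the 8 libraries (-0.0046). With all 40 tumors Hras (0.06 ± 0.11) and Mapk3 (0.0076 ± 0.11) were near 0. Hras was at 0.25 ± 0.12 without the 8 libraries (unadjusted p = 0.0493, adjusted p = 0.642) and Mapk3 at 0.13 ± 0.14 (adjusted p = 0.827). Of 14 ERK feedback and ETS genes 11 had a positive fold change (median 0.07, 0 called), with Etv4 at 0.39 ± 0.14 (p = 0.0107, adjusted p = 0.223), Dusp6, an ERK phosphatase, at 0.12 ± 0.12 (adjusted p = 0.776) and the median turning to -0.03 with the chromosome 15 level as a covariate. Immediate early genes had a median of -0.0095 over 13 genes, turning positive in 3 of 20 alternatives and without the 8 libraries (0.08), Klf4 having the smallest p (0.29 ± 0.11, adjusted p = 0.259). Id3, a target of BMP signaling, was at -0.22 ± 0.19 (adjusted p = 0.723), and the median of 6 Id and BMP feedback genes was -0.13 with 0 called. Id3 turned to 0.11 without the 8 libraries (adjusted p = 0.925), and the median of the 6 genes was then -0.01.

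Genes of glycolysis had mostly positive fold changes, but 0 were called. Of the 11 glycolysis genes that the study examined on these same tumors, 10 had a positive log2 fold change, with a median of 0.31, and 6 were higher at an unadjusted p under 0.05. Over all tested genes 42.3% had a positive fold change, the median was -0.0302, and 3.65% were higher and 8.71% lower at an unadjusted p under 0.05, which is the background for the other lists as well. Because the study chose these genes on these samples, their direction is not independent evidence. Ldha, which turns pyruvate into lactate, was between 375 and 1020 RPKM in the insulin/glargine tumors (median 601) and between 561 and 1590 in the X10/IGF1 tumors (median 809), with a log2 fold change of 0.37 ± 0.12 (p = 0.00420, adjusted p = 0.151). In 17 of 20 X10/IGF1 tumors Ldha was above the mean log2 level of the other class. Hk2, the first enzyme of the pathway, was at 0.26 ± 0.14 (adjusted p = 0.457) and Pkm, the last, at 0.13 ± 0.16 (adjusted p = 0.809). Hk2 was at 0.47 without the 8 libraries (unadjusted p = 0.00357, adjusted p = 0.424), Ldha at 0.41 and Pkm at 0.09 (adjusted p = 0.569 and 0.932). Of 11 genes of glucose uptake and lactate 7 were positive (median 0.12, 0 called), and the lactate exporter Slc16a3 had a log2 fold change of 0.81 ± 0.33 (p = 0.0186, adjusted p = 0.270). The median of these 11 genes was 0.01 with insulin left out. It was 0.24 without the 8 libraries, where 9 were positive. The median of the glycolysis genes was between 0.21 and 0.43 under the 20 alternatives tried and 0.45 without the 8 libraries, where 8 were higher at an unadjusted p under 0.05 and 0 were called. The 6 oxidative genes of the study all had negative fold changes (median -0.10, 0 called), Sdha of complex II being at -0.16 ± 0.09 (adjusted p = 0.509).

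Genes of protein synthesis and turnover also had mostly positive fold changes. Of 77 cytosolic ribosomal protein genes 69 had a positive fold change, with a median of 0.11, 15 were higher and 0 lower at an unadjusted p under 0.05, where 3.65% of all genes were higher, and 1, Rpl30, was called. Leaving out the 4 on chromosome 15 gave a median of 0.11 and 65 positive genes of 73. With the 8 left out, 77 of 77 were positive, with a median of 0.33, and 61 were higher at an unadjusted p under 0.05, though 0 were called. The median fell to 0.03 with IGF1 left out and rose to 0.22 with X10 left out. Of 13 prefoldin and TRiC genes 12 were positive (median 0.17, Pfdn5 called), of 37 proteasome subunit genes 33 (median 0.12, 0 called, 10 with an unadjusted p under 0.05), and of 19 translation factor genes 18 (median 0.11, 0 called). These 3 medians were 0.10, 0.12 and 0.20 without the 8 libraries. In the last list 7 genes lie on chromosome 15, among them Eif3e, with the smallest p (0.36 ± 0.09, adjusted p = 0.0561). Psma3 led the proteasome list at 0.35 ± 0.10 (adjusted p = 0.0811). Mitochondrial ribosomal protein genes were positive in 61 of 75 cases (median 0.08, 0 called), Mrpl45 being at 0.38 ± 0.11 (adjusted p = 0.0957), and the median was -0.0049 with IGF1 left out and 0.12 without the 8 libraries. The 36 complex I genes had a median of 0.03, turning to -0.05 with insulin left out and rising to 0.11 without the 8 libraries, and the 39 nuclear genes of complexes III, IV and V, of which Cox6c was called, had a median of 0.06, turning to -0.04 with insulin left out and rising to 0.10 without the 8 libraries. The 13 mitochondrially encoded genes had a median of 0.0063 with 0 called, which was -0.17 without X10 and 0.15 without IGF1 and changed sign in 5 of 20 alternatives and without the 8 libraries (-0.11).

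Proliferation genes were divided in direction. Over 18 mitosis genes the median was 0.02 with 10 positive, over 18 DNA replication genes -0.0077 with 9 positive, and 0 of either list were called; the sign of both medians depended on the alternatives, and without the 8 libraries they were -0.06 and -0.12. Mki67 had a median of 21.1 RPKM in the insulin/glargine tumors (9.97 to 29.1) and of 17.6 in the X10/IGF1 tumors (6.88 to 27.5), at -0.23 ± 0.14 (adjusted p = 0.523). Mki67 was at -0.35 without the 8 libraries (unadjusted p = 0.0428, adjusted p = 0.633). Pcna was at 0.20 ± 0.09 (adjusted p = 0.324), and at 0.02 without the 8 libraries. Trp53, of which the mice carry a mutant allele, was at -0.36 ± 0.21 (adjusted p = 0.494), with means of 48.5, 45.6, 42.9 and 40.0 RPKM with insulin, glargine, X10 and IGF1.

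**Figure D5:**
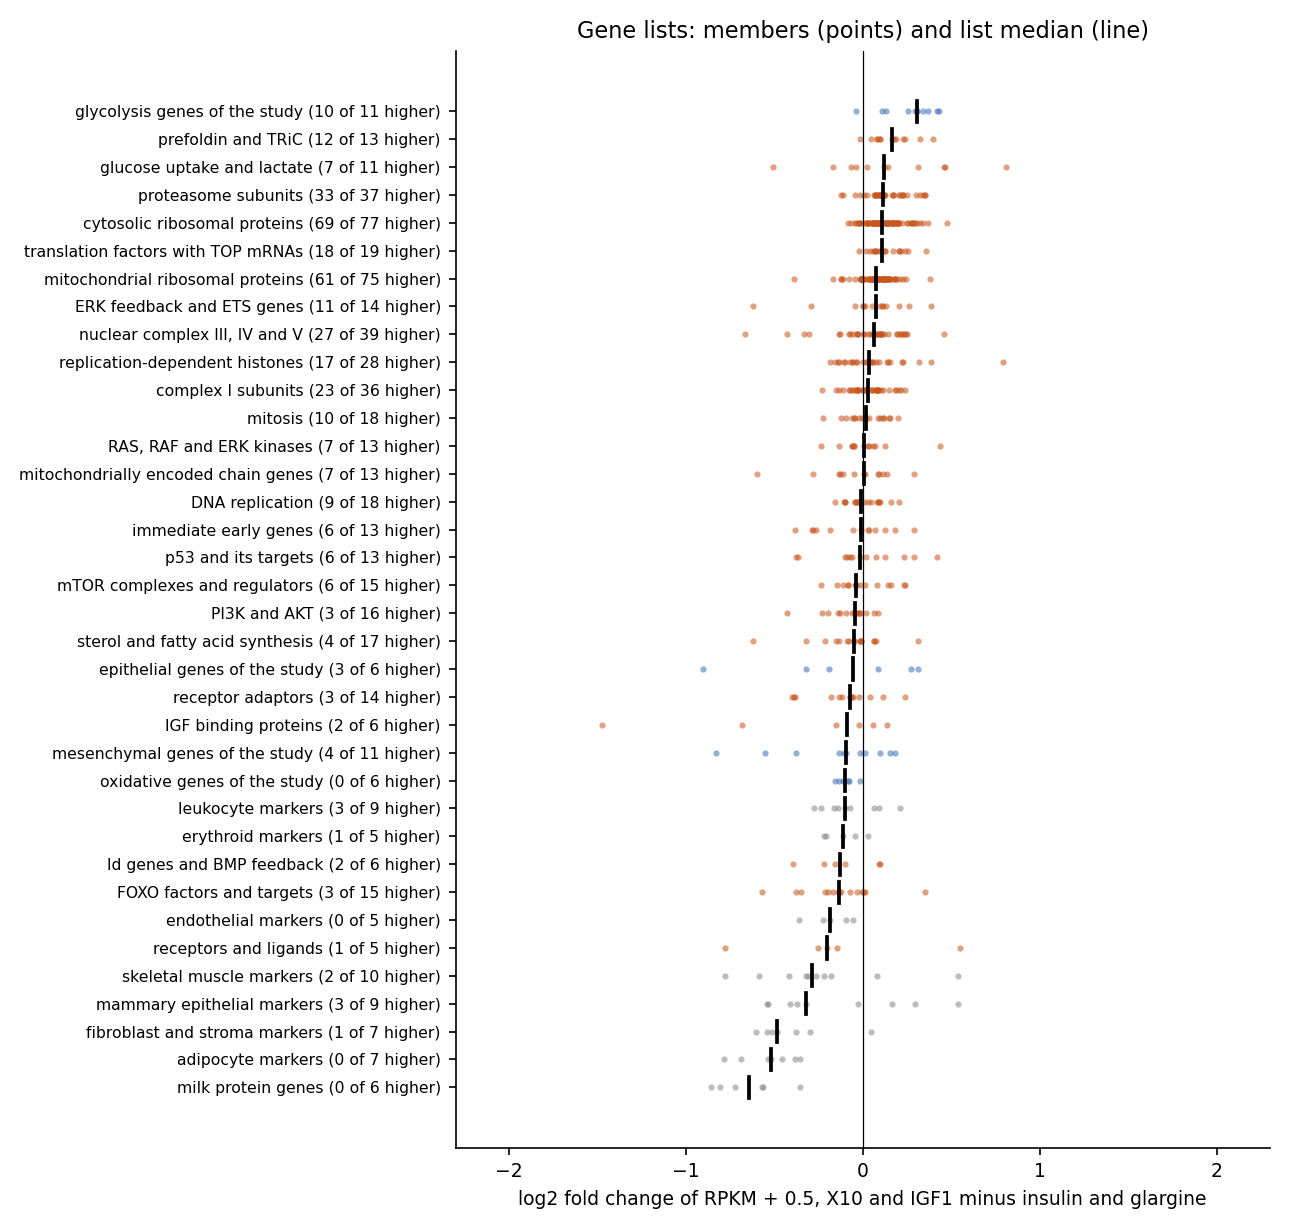
Log2 fold change of RPKM + 0.5 (x axis, X10 and IGF1 minus insulin and glargine) of the tested members of each gene list (points; blue, lists of the study; grey, cell type markers; orange, others), with the list median as a black line and the number of positive members in the row label. Glycolysis genes have the highest median (0.31) and milk protein genes the lowest (-0.64).

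Markers of stroma, fat and milk had mostly negative fold changes, and 0 were called. Of 7 fibroblast and stroma markers 6 had a negative fold change (median -0.48), 4 were lower at an unadjusted p under 0.05, where 8.71% of all genes were, and 0 were called; Pdgfrb had the smallest p (-0.38 ± 0.14, adjusted p = 0.226). Their summed RPKM had a median of 15860 with insulin (4833 to 21730), 11380 with glargine (3459 to 30290), 9657 with X10 (6105 to 14030) and 8435 with IGF1 (2934 to 27280), so that the ranges overlapped widely. In such bulk samples fewer cells of a type and less RNA per cell cannot be told apart. The 7 adipocyte markers were negative throughout (median -0.52, 0 called), with Lep at -0.79 ± 0.35 (adjusted p = 0.342) and a summed median of 244.7 RPKM with glargine against 49.0 with insulin, 92.7 with X10 and 82.1 with IGF1. The 6 milk protein genes were also all negative (median -0.64, 0 called, Csn3 at -0.86 ± 0.57, adjusted p = 0.580). Both medians changed sign without the glargine tumors, to 0.21 and 0.44. Of 9 mammary epithelial markers 6 were negative (median -0.32, turning to 0.48 with IGF1 left out, 0.13 with glargine left out and 0.09 without the 8 libraries), a share near that of all genes, of which 42.3% were positive, and Epcam and Cdh1 were at -0.54 ± 0.47 and -0.32 ± 0.34 (adjusted p = 0.720 and 0.780). The medians were -0.10 for 9 leukocyte markers, -0.19 for 5 endothelial, -0.11 for 5 erythroid and -0.28 for 10 skeletal muscle markers, with 0 called in each. The leukocyte median turned positive in 5 of 20 alternatives (up to 0.15), the muscle median in 2 (up to 0.10) and the erythroid median in 1 (0.01). In the fit on 32 tumors, without the 8 libraries, the leukocyte median was 0.12 and the muscle median 0.67, with 9 of 10 muscle markers positive, while the stroma, adipocyte and milk medians remained negative at -0.43, -0.65 and -0.79. The 6 epithelial and 11 mesenchymal genes that the study examined on these tumors had medians of -0.05 and -0.10, with 0 called in either. The epithelial median was -0.64 without X10 and 0.37 without IGF1, and changed sign in 4 of 20 alternatives and without the 8 libraries (0.12). X10 minus IGF1 was 1.40 for Cdh1 (unadjusted p = 0.00657, adjusted p = 0.288) and 2.03 for Epcam (unadjusted p = 0.00431, adjusted p = 0.288). With marker scores as covariates 19 genes were called, of which 2 were protein-coding, namely Rpl30 and Pfdn5 (adjusted p = 0.0145 for both). The other 7 higher and the 4 lower protein-coding genes were not called in that fit, with Fbln5 at -0.70 (adjusted p = 0.052) in place of -0.77 and Crtc1 at -0.40 (adjusted p = 0.0551) in place of -0.42.

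The ligands within each class were compared in the same fit. Between X10 and IGF1, 0 genes (0%) were called, and 2204 had an unadjusted p under 0.05. Between glargine and insulin, 0 genes (0%) were called, and 801 had an unadjusted p under 0.05. Limma voom on the recovered reads also called 0 genes in both. The number of genes at an unadjusted p under 0.05 was thus larger between X10 and IGF1 than between the classes, where it was 2069. In the fit on 32 tumors 1295 genes had an unadjusted p under 0.05 between X10 and IGF1 and 1295 between the classes, and 0 were called in both. The precision of these comparisons was limited, since the median half-width of a gene's 95% interval was 0.35 on the log2 scale within a class and 0.25 between the classes.

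For Rpl30, X10 minus IGF1 was 0.09 (95% interval -0.15 to 0.33) and glargine minus insulin 0.29 (0.05 to 0.53). Without the 8 libraries X10 minus IGF1 was 0.02 for Rpl30 (-0.32 to 0.36). For Pfdn5, with all tumors, X10 minus IGF1 was -0.07 (-0.28 to 0.13) and glargine minus insulin 0.10 (-0.10 to 0.31). Fbln5 differed by -0.14 (-0.59 to 0.31) between X10 and IGF1 and by 0.67 (0.22 to 1.12) between glargine and insulin, and Crtc1 by -0.26 (-0.52 to -0.00085) and by -0.40 (-0.66 to -0.14). Leaving the 8 out, X10 minus IGF1 was -0.40 for Crtc1 (-0.77 to -0.016) and -0.25 for Fbln5 (-0.91 to 0.40). For Ldha the values were 0.03 (-0.32 to 0.37) and 0.14 (-0.20 to 0.49), and for Igf1 0.29 (-0.34 to 0.92) and 0.41 (-0.22 to 1.04). These intervals are not adjusted for the number of genes. Glargine, which differs from insulin in both chains, thus lay nearer to the X10/IGF1 tumors than insulin did for Rpl30, and farther from them for Fbln5.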

How the data were processed

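Mammary gland tumor RNA was Poly-A selected and sequenced on the Ion Proton. The authors aligned reads to GRCm38 with TopHat2 2.0.10 and Bowtie2, counted with HTSeq 0.6.1, scaled the counts to library size and gene length with DEXSeq, and deposited the resulting RPKM values for 37701 genes; 0 columns were set aside, and strand use is not given in the sources used here. Here, log2(RPKM + 0.5) of 40 tumors was fitted with limma 3.58.1 (R 4.3.3; 4 ligand means, intensity trend) over the 16733 genes averaging 0.5 RPKM or more over 50 tumors, with Benjamini-Hochberg adjustment, and tested on simulated data. The authors' DESeq2 analysis was not repeated. In each tumor the RPKM values rise in even steps of 1 read, which gave library sizes (at least 98.4% of low values per tumor equalled a whole number of reads exactly after rounding, where chance gives 26.6 to 51.9%) and gene lengths for 89.7% of tested genes, used for limma voom as an alternative. Gene types came from GENCODE M21, which held 16551 of the tested genes; 97 others without a Gm-number symbol were counted as protein-coding, as were 151 Gm-number genes annotated so, which count in both classes. Closest coding transcripts were found with BLAST+ 2.17.0, at least 50% of the pseudogene covered. Permutation tests used scipy 1.17.1. Results were also computed without 8 libraries with adjacent identifiers, chosen after the data were seen.

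Genes named were the 10 protein-coding and 5 Gm-number genes with the smallest p in each direction, fixed pathway genes, and the member with the smallest p of each of 36 lists, of which 1 is not reported here; other named genes were chosen after their values were seen. The groups compared, lists and alternatives were chosen with earlier results of these data known.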

Additional observations from a re-analysis of the deposited data

Results flagged for a closer look

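In groups of 10 tumors, the highest or lowest tumor was examined for a gap to its neighbour that was wide for the group's whole range (Dixon's criterion at 95%). Of 140 groups examined 15 had such a tumor, and chance alone gives about 1 in 20.

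Among the genes called higher, 1 glargine tumor had both 31.3 RPKM of Utp23 (next 23.3) and 26.2 of Slc25a17 (next 20.2). Of the IGF1 tumors, 1 had 52.9 RPKM of Fcf1 (next 38.6) and another 249 of Cox6c (next 186.1). Among the lower genes, 1 glargine tumor had 20.1 RPKM of Fbln5 (next 11.9), 4.94 of Reck (next 2.60) and 55.2 of Fxyd6 (next 26.8). Another glargine tumor had 86.4 RPKM of Svep1 (next 49.6). For the same class of genes, 1 IGF1 tumor had 35.7 RPKM of Crtc1 (next 24.5) and another 34.0 of Svep1 (next 18.2). Of the Gm-number genes, Gm12947 reached 1.07 RPKM in 1 glargine tumor and Gm11273 3.81 in 1 IGF1 tumor. Mitochondrially encoded genes took 5.49% of the summed RPKM in 1 glargine tumor (next 4.22). Library size was 51.9 M reads in 1 insulin tumor (next 41.9) and 51.9 M in 1 IGF1 tumor (next 44.6), the same recovered size, while mitochondrially encoded genes took 3.05% and 3.62% of their summed RPKM.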

How the results depend on the processing

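Counts are given as all called genes, protein-coding genes and Gm-number genes, against 58, 13 and 40 as reported. They were 14, 5 and 9 with no filter on low values, 27, 8 and 16 with a mean RPKM of at least 5, 21, 8 and 11 with quantile normalization, 13, 3 and 10 with 2 class means in the fit, and 19, 2 and 17 with marker scores as covariates. Left out in turn, insulin gave 0, 0 and 0, glargine 2, 2 and 0, X10 0, 0 and 0, and IGF1 757, 177 and 499. The processed pseudogene share as a covariate gave 7, 7 and 0. Chosen after seeing the data, the chromosome 15 level as a covariate gave 10, 0 and 10. The 8 libraries with identifiers 25 to 32 left out, also chosen after seeing the data, gave 0, 0 and 0; the Gm-number share difference then turned to 0.077 percentage points (p = 0.754) and the log2 fold change of Gm11273 to -0.032 (adjusted p = 0.963). Leaving out pseudogenes and Gm-number genes gave 2 genes, both protein-coding. Protein-coding calls were also 6 with vehicle in the fit and 6 with chromosome 15 genes left out, and Gm-number calls 26 with limma voom on recovered reads. The Gm-number share differed by -0.35 percentage points without glargine (p = 0.364) and by -0.23 without X10 (p = 0.496). The cause of these changes was not tested.

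Leaving out 1 tumor at a time gave 10 to 196 called genes, 2 to 59 protein-coding and 8 to 142 Gm-number genes, and 0 to 0 genes for X10 minus IGF1 and for glargine minus insulin. The count of 58 fell by over 1.5 times without 1 tumor in 22 cases (insulin_8, insulin_9, insulin_15, insulin_21, insulin_26, insulin_27, insulin_37, glargine_62, glargine_63, glargine_64, glargine_67, glargine_69, glargine_70, glargine_73, X10_111, X10_113, X10_115, X10_116, X10_118, X10_120, IGF1_124 or IGF1_128) and rose by as much in 6 (glargine_47, X10_105, X10_107, IFG1_132, IGF1_135 or IGF1_136). Rpl30 and Pfdn5 were called in 40 of 40 of these fits. Of the 30 genes named for their small p, each but Gm11273 kept its direction in every alternative that could be computed for it and in the 40 single-tumor omissions. No paired analysis was possible because the tumor numbers are not shared between treatments. A library of 26.6 M reads limits the precision of genes near 0.5 RPKM.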

Other observations

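Replication-dependent histone genes had a median log2 fold change of 0.03 over 28 genes with 0 called, Hist1h2al, which GENCODE annotates as a processed pseudogene, being at 0.79 ± 0.20 (adjusted p = 0.0561). The median was 0.20 without X10, -0.12 without IGF1 and -0.06 without insulin, and 0.08 without the 8 libraries with identifiers 25 to 32, where Hist1h2al was at 0.36 (adjusted p = 0.688). Of 13 genes of the p53 list 6 were positive and 0 called (median -0.02, between -0.04 and 0.12 over the alternatives and positive in 8 of 20), and Phlda3, an inhibitor of AKT, had the smallest p of them (0.42 ± 0.13, adjusted p = 0.117), with means of 57.2 and 63.3 RPKM with insulin and glargine and of 96.0 and 74.0 with X10 and IGF1. Ccng2, a FOXO target, was at 0.35 ± 0.15 (adjusted p = 0.277). The sterol and fatty acid synthesis genes had a median of -0.05 over 17 genes with 0 called, turning positive in 2 of 20 alternatives, Scd1 being at -0.62 ± 0.28 (adjusted p = 0.337).

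The genes with the smallest p in the remaining lists were not called. Sesn2, a stress-induced inhibitor of mTORC1, was at 0.24 ± 0.10 (adjusted p = 0.317), Ndufs3 of complex I at 0.22 ± 0.07 (adjusted p = 0.161) and mt-Nd3, a mitochondrially encoded subunit of the same complex, at 0.29 ± 0.12 (adjusted p = 0.305). Elf5, a transcription factor of luminal mammary epithelium, was at -0.90 ± 0.50 (adjusted p = 0.468) and Id4 at -0.39 ± 0.28 (adjusted p = 0.622). Among the markers of other cell types, the values were -0.36 ± 0.22 for endothelial Vwf (adjusted p = 0.538), -0.24 ± 0.20 for Csf1r of macrophages (adjusted p = 0.710), -0.78 ± 0.78 for Myh1 of muscle (adjusted p = 0.767) and -0.22 ± 0.35 for erythroid Hba-a2 (adjusted p = 0.865). Myh1 was at -0.06 without the 8 libraries (adjusted p = 0.989), and Vwf, Csf1r and Hba-a2 were then at -0.13, -0.27 and -0.10.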
